A study of Mus musculus with 12 samples.

Results

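The genes described here encode the contractile and actin cytoskeleton machinery of mouse embryonic fibroblasts: actins, calponins and transgelins, myosin II chains, tropomyosins and other thin filament proteins, actin crosslinkers, focal adhesion proteins, LIM-domain proteins, and the transcription factor SRF with genes of the type it regulates. They are the 45 rows of the deposited count table, out of 48709, whose gene name stands on a list of such genes, and 44 of the 45 had enough counts to be tested among 13702 genes. The fibroblasts were wild-type cells of the strain C57BL/6, prepared from embryos at E12.5–13.5. They received a control siRNA (siControl) or an siRNA against IMP2 (siIMP2), and 24 hours later were left without stimulus or given 200 ng/mL of the cytokine interleukin-17 (IL-17) for 8 hours (siControl_IL17, siIMP2_IL17). IMP2, encoded by Igf2bp2, is a cytoplasmic protein that binds messenger RNAs and affects their stability and translation. Each of the 4 groups held 3 RNA-seq libraries, so that the siRNA and the cytokine could be compared singly and together. All cells, controls included, had been through transfection, and the controls for IL-17 carried the same siRNA as the treated cells.

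Actin filaments pull on one another through myosin II, whose activity depends on phosphorylation of its regulatory light chain, and tropomyosin, caldesmon and calponin on the filament set how readily myosin engages. In fibroblasts the filaments bundle into stress fibres that end in focal adhesions, where talin, vinculin and LIM-domain proteins tie them to integrins. Many of the genes are targets of SRF, which binds a DNA element called the CArG box and works with MRTF coactivators that actin monomers hold in the cytoplasm. Smooth muscle forms of actin, calponin, transgelin and myosin are the classical marks of smooth muscle cells, and fibroblasts that take on the form called the myofibroblast make several of them, α-smooth muscle actin (Acta2) above all.

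The promoters of several of these genes carry the CArG box in plain view. The window from 250 bases before to 50 bases after each annotated start (RefSeq, GRCm38.p6, the assembly also called mm10) was read for 39 of the 45 genes, with 51 windows in all, while Actb, Actg2, Csrp2, Lims2, Myh11 and Tagln had no entry. The CArG box was taken strictly, as CC, then 6 bases of A or T, then GG, a pattern that reads the same on both strands. It stood in 11 of the 51 windows (21.6%), against 535 of 32851 windows of the same length over all genes (1.63%). By gene it stood in 10 of the 39 (25.6%), against 488 of 27025 over all genes (1.81%). The list was made to include SRF-type genes, so these shares are no test of the members. A match is a description of letters, not a bound site, and boxes with another letter in place of one of these were not counted. The 250 bases before the start are printed for 6 of the 10, with the box in capitals: Acta1, the actin with the largest siRNA difference, Myl9 and Fhl1 as members with large differences, Vcl as a focal adhesion gene, Srf itself, which has 2 boxes, and Actg1, the single member called lower. All are written 5′ to 3′ toward the gene.
Acta1, chr8:123894776-123895025, minus strand: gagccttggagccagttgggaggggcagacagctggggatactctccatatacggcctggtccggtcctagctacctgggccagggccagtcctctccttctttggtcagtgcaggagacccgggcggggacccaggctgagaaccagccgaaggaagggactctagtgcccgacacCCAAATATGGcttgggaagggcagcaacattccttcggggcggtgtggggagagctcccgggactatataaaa
Myl9, chr2:156775214-156775463, plus strand: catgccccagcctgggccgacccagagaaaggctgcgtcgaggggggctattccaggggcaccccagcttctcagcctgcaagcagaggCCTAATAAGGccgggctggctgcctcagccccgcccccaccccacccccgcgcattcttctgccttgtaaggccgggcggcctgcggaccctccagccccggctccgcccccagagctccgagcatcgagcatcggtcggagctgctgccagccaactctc
Fhl1, chrX:56779433-56779682, plus strand: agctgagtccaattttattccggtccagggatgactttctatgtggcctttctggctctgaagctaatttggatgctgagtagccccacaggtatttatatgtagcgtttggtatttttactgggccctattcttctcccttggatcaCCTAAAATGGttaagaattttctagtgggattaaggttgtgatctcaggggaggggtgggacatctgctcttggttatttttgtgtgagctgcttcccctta
Vcl, chr14:20929148-20929397, plus strand: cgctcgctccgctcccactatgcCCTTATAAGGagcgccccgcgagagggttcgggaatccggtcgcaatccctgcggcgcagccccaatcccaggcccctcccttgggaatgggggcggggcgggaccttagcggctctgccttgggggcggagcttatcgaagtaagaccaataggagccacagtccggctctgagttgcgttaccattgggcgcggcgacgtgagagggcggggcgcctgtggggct
Srf, chr17:46556163-46556412, minus strand: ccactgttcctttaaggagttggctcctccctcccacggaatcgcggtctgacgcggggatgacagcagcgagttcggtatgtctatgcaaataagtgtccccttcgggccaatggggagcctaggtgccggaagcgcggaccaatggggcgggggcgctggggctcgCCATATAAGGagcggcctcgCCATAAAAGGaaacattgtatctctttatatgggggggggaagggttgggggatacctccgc
Actg1, chr11:120348496-120348745, minus strand: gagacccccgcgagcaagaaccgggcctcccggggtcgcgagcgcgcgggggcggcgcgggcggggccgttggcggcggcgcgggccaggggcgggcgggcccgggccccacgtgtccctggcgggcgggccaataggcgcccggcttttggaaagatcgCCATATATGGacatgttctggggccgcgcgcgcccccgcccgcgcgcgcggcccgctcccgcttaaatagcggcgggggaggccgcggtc

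Counted from the start to the first base of the box, they lie 73 bases upstream in Acta1, 161 in Myl9, 102 in Fhl1, 227 in Vcl, 82 and 62 in Srf and 90 in Actg1. The other 4 genes with a box are Actc1, Cnn2, Myl6 and Fhl2, the last with a box at each of 2 annotated starts. Fhl1 and Myl6 also have 2 annotated starts each, with a box at only 1 of them. For Fhl1 the printed window lies within the gene, which begins at chrX:56731787.

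The libraries held 33841054 to 44433699 exon counts each, and a value of 1 CPM (reads scaled to a common library total with TMM factors) stood for 31.9 to 50.9 reads. Library titles start with NA for replicates 1 and 2 of each group and with RB160 for replicate 3, and this title set was a term in the models. What separates the sets is not stated in the labels. Nor do they say that a group's libraries are separate cultures, so the p-values reflect spread among these libraries alone, and that spread may be technical. The siRNA target Igf2bp2 measured 168, 146 and 134 CPM in siControl, 22.3, 18.6 and 24.6 CPM in siIMP2, 166, 156 and 139 CPM in siControl_IL17 and 24.3, 18.4 and 28.2 CPM in siIMP2_IL17, so that every siIMP2 library lay below every siControl library. Its log2 difference was -2.77 ± 0.15 unstimulated (edgeR adjusted p = 1.58e-07) and -2.70 ± 0.15 with IL-17 (2.04e-07). Values per library are in replicate order, and the adjusted p is from the quasi-likelihood test of edgeR, adjusted after Benjamini and Hochberg across the 13702 genes. Differences are log2 values ± SE (n = 3 in a group). The words rose and fell are kept for an adjusted p below 0.05.

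By TPM (the authors' deposited values, which allow for transcript length), the members together made up 4.84% ± 0.589 (SD, n = 3) of all gene expression in siControl and 6.94% ± 0.928 in siIMP2. The lowest siIMP2 library, at 5.90%, stood above the highest siControl library, at 5.18%, with an exact two-sided permutation p = 0.1, the smallest that 3 against 3 libraries allow. Levels in siControl spanned a wide range. Acta2 stood first at 8677 ± 1499 TPM, with Actg1 at 6652 ± 941, Actb at 5464 ± 987, the myosin light chain Myl6 at 4751 ± 372 and Tagln at 4289.8 ± 1184 TPM. Each of these 5 overlapped with its neighbour in that order within their standard deviations, while the libraries of Actg1 all lay above those of Myl6 and of Tagln. At the low end, Tnni1 and Mylk stood near 3 TPM (3.03 ± 1.91 and 3.00 ± 2.84), Synpo2 at 2.75 ± 0.749, Des at 0.779 ± 0.236 and Myh11 at 0.272 ± 0.203 TPM. Actc1, the cardiac actin, had 1 count in the 12 libraries together and was the member not tested.

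With IMP2 siRNA the contractile genes rose almost throughout. In unstimulated cells 38 of the 44 tested members rose, where 16.1% of all 13702 genes did, and 1 fell, Actg1, where 16.7% of all genes did. Myh10, Mylk, Tpm3, Des and Csrp2 did not pass. The median difference of the members was 0.58, against -0.000356 for all genes tested, and 11 members rose at least 2-fold. For 40 of the 44, every siIMP2 library lay above every siControl library of its own title set, as it did for 25.6% of all genes tested. The 4 exceptions were Tpm3, Csrp2, Actg1 and Mylk. Over both sets together, every siIMP2 library lay above every siControl library for 16 members, as for 9.47% of all genes. All 38 rises had the same sign in both sets, but both sets went into the calls, so this is no separate check. These calls need the title-set term. In a fit without it only Myh11, Synpo2 and Fhl2 rose, where 1% of all genes did, and 0 members fell, among 321 genes called in either direction. The differences themselves moved little, with a median of 0.58 for the members in that fit too and a largest shift of 0.16, for Mylk.

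**Figure D1:**
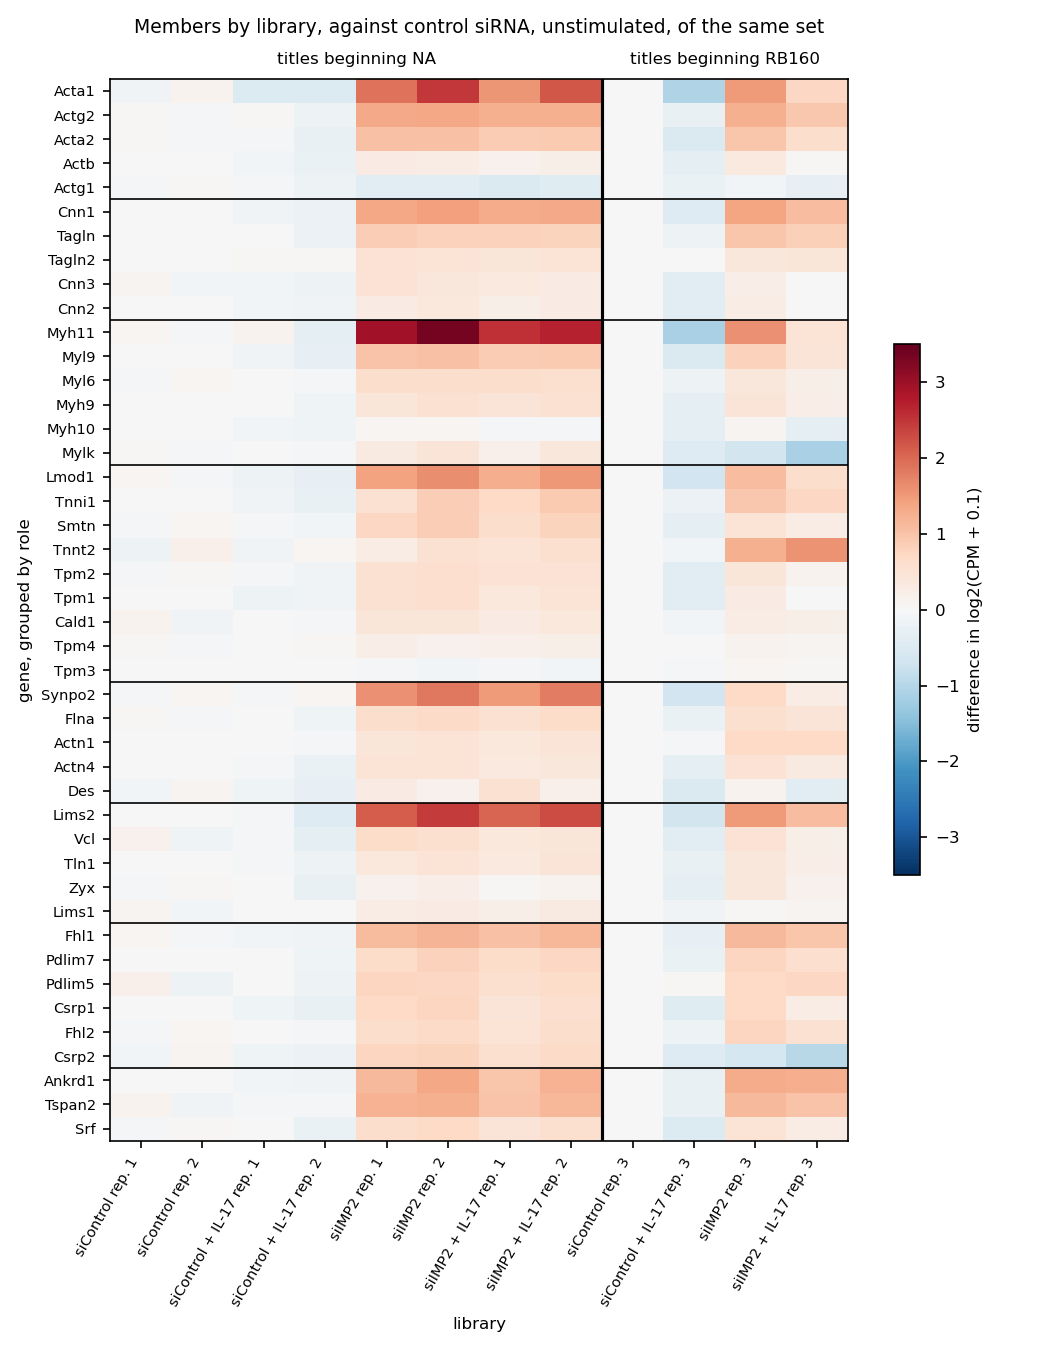
Each row is a tested member, grouped by role, and each column a library. Colour is the difference in log2(CPM + 0.1) from the mean of the unstimulated siControl libraries of the same title set (for RB160, 1 library, which is therefore 0), and the siIMP2 columns are red for most rows in both sets, with Actg1 the blue row among the actins.

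The actins divided by type. Acta2 (α-smooth muscle actin; ENSMUSG00000035783, mm10 chr19:34241090-34255336, minus strand) measured 6465, 6224 and 3775 CPM in siControl and 12815, 13024 and 7408 CPM in siIMP2. Its difference was 1.01 ± 0.09 (edgeR adjusted p = 3.91e-06), a 2.01-fold rise, and the siIMP2 libraries did not overlap with the siControl libraries. Actg2 (γ-smooth muscle actin, typical of gut and bladder muscle) went from 438, 408 and 283 to 1054, 1073 and 672 CPM, a difference of 1.30 ± 0.07 (edgeR adjusted p = 2.16e-07). Every siIMP2 library again lay above every siControl library, including the RB160 library, although the RB160 set held less Actg2. Acta1, the skeletal muscle actin, is far rarer in these cells and moved the most of the family, by 1.96 ± 0.22 (edgeR adjusted p = 2.96e-05, NA 2.19, RB160 1.49), and 64.2% of its reads were uniquely mapped.

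The cytoplasmic actins, which every cell uses, moved little or the other way. Actb rose by 0.30 ± 0.07 (edgeR adjusted p = 0.00399). Actg1 (ENSMUSG00000062825, mm10 chr11:120345690-120348542, minus strand) measured 6909.5, 7345 and 4533 CPM in siControl and 5525, 5467 and 4205 CPM in siIMP2, and fell by 0.28 ± 0.08 (edgeR adjusted p = 0.0126, NA -0.37, RB160 -0.11). Within the NA set both siIMP2 libraries lay below both siControl libraries, and in the RB160 set the siIMP2 library was lower by less. With IL-17 the NA libraries of Actg1 were 6802 and 6343 CPM in siControl_IL17 and 5047 and 5262 CPM in siIMP2_IL17, and the RB160 libraries were 3864 and 3687 CPM. This call lay near the threshold: the adjusted p was 0.0518 without siIMP2 replicate 1 and 0.0584 without siIMP2 replicate 2, and 26.6% of its reads were uniquely mapped. On uniquely mapped reads alone, an alternative chosen after seeing the data, its difference was -0.27 (edgeR adjusted p = 0.0133) without stimulus and -0.24 (0.0244) with IL-17.

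As shares of the summed actin TPM, Acta2 went from 40.2% ± 0.975 (SD, n = 3) in siControl to 55.1% ± 2.12 in siIMP2, and Actg2 from 3.19% ± 0.217 to 5.36% ± 0.0974. Actg1 went from 31.0% ± 1.2 to 17.4% ± 2.30 and Actb from 25.3% ± 0.562 to 21.2% ± 0.223. None of these shares overlapped between the groups, and each gave an exact two-sided permutation p = 0.1, the smallest that this design allows. Shares of a sum depend on one another, so the fall in the share of Actb stands beside a rise in its CPM. With IL-17 the Acta2 share was 38.7% ± 2.58 in siControl_IL17 and 54.3% ± 2.89 in siIMP2_IL17.

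**Figure D2:**
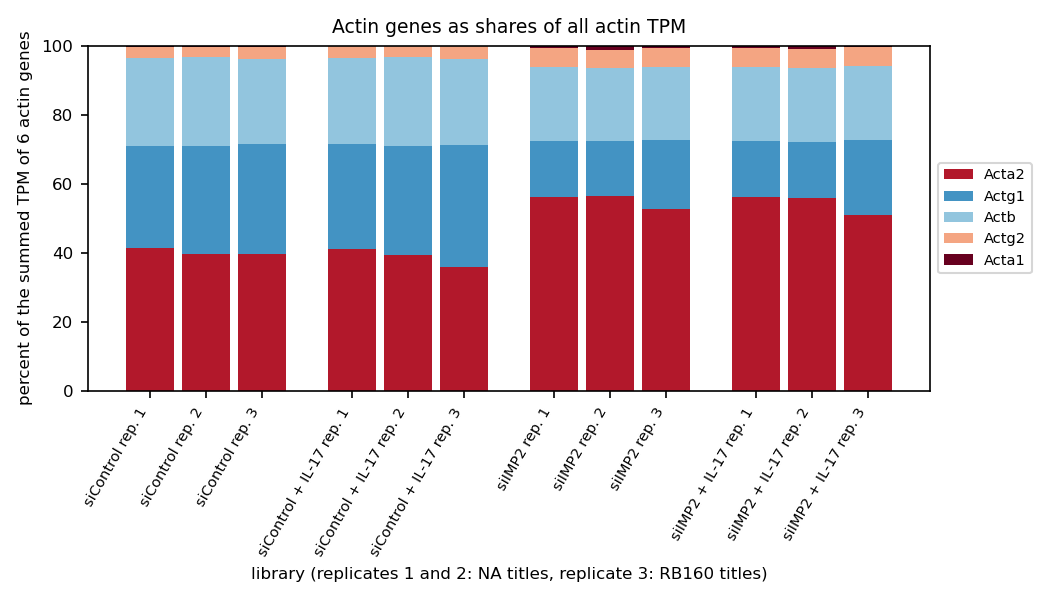
Stacked bars give each actin gene as a percentage of the summed TPM of the 6 actin genes in each of the 12 libraries (Actc1, with 1 count in all, is not drawn). The Acta2 segment is between 35.9% and 41.3% in the 6 libraries with control siRNA and between 51.0% and 56.5% in the 6 with IMP2 siRNA.

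Among the calponins and transgelins, small proteins that bind along the actin filament, all 5 rose. Cnn1, the smooth muscle calponin (ENSMUSG00000001349, mm10 chr9:22099281-22109630, plus strand), had the smallest p of all members, at 696, 696 and 219.7 CPM in siControl and 1769, 1873 and 569 CPM in siIMP2. That is a difference of 1.38 ± 0.07 (edgeR adjusted p = 1.54e-07, NA 1.39, RB160 1.37), although the RB160 libraries held less Cnn1 throughout. Tagln, the transgelin also called SM22α, went from 2990.5, 2900.5 and 1413 CPM to 5386, 5185 and 2778 CPM, by 0.89 ± 0.07 (edgeR adjusted p = 1.35e-06). In both genes the RB160 siIMP2 library lay below the NA siControl libraries and above its own control. The broadly expressed relatives rose less: Tagln2 by 0.45 ± 0.05, Cnn3 by 0.37 ± 0.07 and Cnn2 by 0.31 ± 0.07, with edgeR adjusted p between 1.54e-05 and 0.00362. As a share of the summed calponin TPM, Cnn1 was 24.4% ± 8.52 (SD, n = 3) in siControl and 39.4% ± 10.8 in siIMP2, with overlap and an exact two-sided permutation p = 0.3, a test that leaves out the title set. Within the sets it went from 29.0% and 29.6% to 44.9% and 46.4% in NA and from 14.6% to 27.0% in RB160, higher with IMP2 siRNA in both.

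Of the 6 myosin II chains and their kinase, 4 rose. Myl9, the regulatory light chain of smooth muscle and non-muscle myosin (ENSMUSG00000067818, mm10 chr2:156775420-156781658, plus strand), measured 501, 508 and 304 CPM in siControl and 1010.2, 1032 and 535 CPM in siIMP2, a rise of 0.95 ± 0.08 (edgeR adjusted p = 4.13e-06). Myl6, the essential light chain, went from 1078, 1207 and 1024 to 1743, 1731 and 1349.5 CPM, by 0.53 ± 0.07 (edgeR adjusted p = 0.000137). Neither gene overlapped between the groups. Myh11, the smooth muscle heavy chain and a defining gene of mature smooth muscle, had the largest difference of any member, 2.64 ± 0.36 (edgeR adjusted p = 0.000138), but at a low level: 0.41, 0.358 and 1.02 CPM in siControl and 3.63, 4.78 and 3.31 CPM in siIMP2, from 70 and 428 counts over the 3 libraries of each group. Without siControl replicate 3 its difference was 3.49. The non-muscle heavy chain Myh9 rose by 0.47 ± 0.07 (edgeR adjusted p = 0.000442), while the second non-muscle chain Myh10 was at 0.07 ± 0.06 (edgeR adjusted p = 0.39). Mylk, the kinase that phosphorylates the light chain, was at -0.04 ± 0.23 (edgeR adjusted p = 0.906) and had opposite signs in the sets.

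Thin filament genes rose in 8 of 9 cases. Lmod1, which nucleates actin filaments in smooth muscle (ENSMUSG00000048096, mm10 chr1:135324807-135368065, plus strand), went from 114, 104 and 69.5 CPM in siControl to 289.5, 336 and 146 CPM in siIMP2, by 1.36 ± 0.13 (edgeR adjusted p = 8.04e-06), with no overlap. Smtn, encoding smoothelin, went from 153, 171 and 121 to 266, 295 and 169 CPM, by 0.69 ± 0.09 (edgeR adjusted p = 8.47e-05), with the RB160 siIMP2 library just under siControl replicate 2. The tropomyosins were graded. Tpm2 rose by 0.51 ± 0.07, Tpm1 by 0.46 ± 0.08 and Tpm4 by 0.18 ± 0.05, while Tpm3 stood at -0.01 ± 0.05 (edgeR adjusted p = 0.000214, 0.000743, 0.0178 and 0.873). Cald1, the caldesmon gene, rose by 0.36 ± 0.07 (edgeR adjusted p = 0.00151). The striated muscle troponins were rare, and Tnni1 rose by 0.78 ± 0.13 and Tnnt2 by 0.65 ± 0.22 (edgeR adjusted p = 0.000714 and 0.0339). Reads of Tpm4 and Tpm3 were 33.5% and 56.5% uniquely mapped.

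Of the crosslinkers and intermediate filament genes 4 of 5 rose. Flna, encoding filamin A, went from 3262, 3102 and 2546 CPM to 4849, 5049 and 3766 CPM, by 0.61 ± 0.06 (edgeR adjusted p = 1.51e-05), with no overlap between the groups. Actn4, an α-actinin, went from 1480.2, 1475 and 967 to 2043, 2049 and 1376 CPM, by 0.48 ± 0.06 (edgeR adjusted p = 0.000113), and its RB160 siIMP2 library lay below the NA siControl libraries. Actn1, the other non-muscle α-actinin, rose by 0.53 ± 0.07 and Synpo2, a Z-disc and stress fibre protein, by 1.35 ± 0.21 (edgeR adjusted p = 0.000113 and 0.000445). Without siControl replicate 3 the Synpo2 value was 1.74. Desmin (Des), the muscle intermediate filament, did not pass at 0.22 ± 0.22 (edgeR adjusted p = 0.492), on 471 counts in all 12 libraries.

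All 5 focal adhesion genes rose, by very different amounts. Lims2, a partner of integrin-linked kinase, measured 21.8, 21.3 and 14.6 CPM in siControl and 94.0, 118 and 41.0 CPM in siIMP2, a 4.07-fold difference (2.03 ± 0.19, edgeR adjusted p = 6.95e-06). Its close relative Lims1 rose by 0.20 ± 0.06 (edgeR adjusted p = 0.0298). Tln1, encoding talin, went from 598, 599 and 496 to 771, 831 and 650.2 CPM, by 0.41 ± 0.06 (edgeR adjusted p = 0.000212). Neither Lims2 nor Tln1 overlapped between the groups. Vcl, encoding vinculin, rose by 0.56 ± 0.09 and Zyx, encoding zyxin, by 0.26 ± 0.08 (edgeR adjusted p = 0.00036 and 0.029). Of the reads of Vcl, 52.5% were uniquely mapped, and on these its difference was 0.55 (edgeR adjusted p = 0.000169).

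Of the LIM and PDZ-LIM proteins 5 of 6 rose. Fhl1, a LIM-domain protein of muscle (ENSMUSG00000023092, mm10 chrX:56731787-56793346, plus strand), went from 845, 782 and 384 CPM in siControl to 1768, 1842 and 844 CPM in siIMP2, by 1.14 ± 0.06 (edgeR adjusted p = 1.58e-07, NA 1.15, RB160 1.14). Pdlim7, which binds α-actinin and tropomyosin, went from 329, 338 and 171 to 525, 581 and 288 CPM, by 0.74 ± 0.06 (edgeR adjusted p = 3.5e-06). In both genes the RB160 siIMP2 library lay among or below the NA siControl libraries, well above its own control. Pdlim5 rose by 0.72 ± 0.08, Csrp1 by 0.71 ± 0.07 and Fhl2 by 0.68 ± 0.06 (edgeR adjusted p = 2.93e-05, 1.12e-05 and 4.49e-06). Csrp2, the smooth muscle LIM protein, was at 0.27 ± 0.27 (edgeR adjusted p = 0.467).

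SRF itself and the SRF-type genes rose. Srf went up by 0.60 ± 0.08 (edgeR adjusted p = 9.88e-05). On uniquely mapped reads, 47.6% of the reads of Srf, its difference was 0.53 (edgeR adjusted p = 0.00217). Ankrd1, a muscle ankyrin-repeat gene that YAP and SRF cofactors induce, went from 329, 326 and 145 to 723, 832 and 357 CPM, by 1.26 ± 0.08 (edgeR adjusted p = 5.08e-07), with no overlap. Tspan2, a tetraspanin of smooth muscle, went from 42.7, 35.9 and 19.1 to 91.1, 93.5 and 42.1 CPM, by 1.204 ± 0.07 (edgeR adjusted p = 3.68e-07), and its RB160 siIMP2 library lay between siControl replicates 2 and 1. Of the 10 genes with the CArG box in the promoters above, 8 rose, Actg1 fell and Actc1 was not tested. Of the 29 with a promoter and no such box, 25 rose and 4 did not pass. The median difference was 0.60 with the box and 0.51 without. The 6 members with no promoter entry, of which 5 rose, had a median of 1.09.

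**Figure D3:**
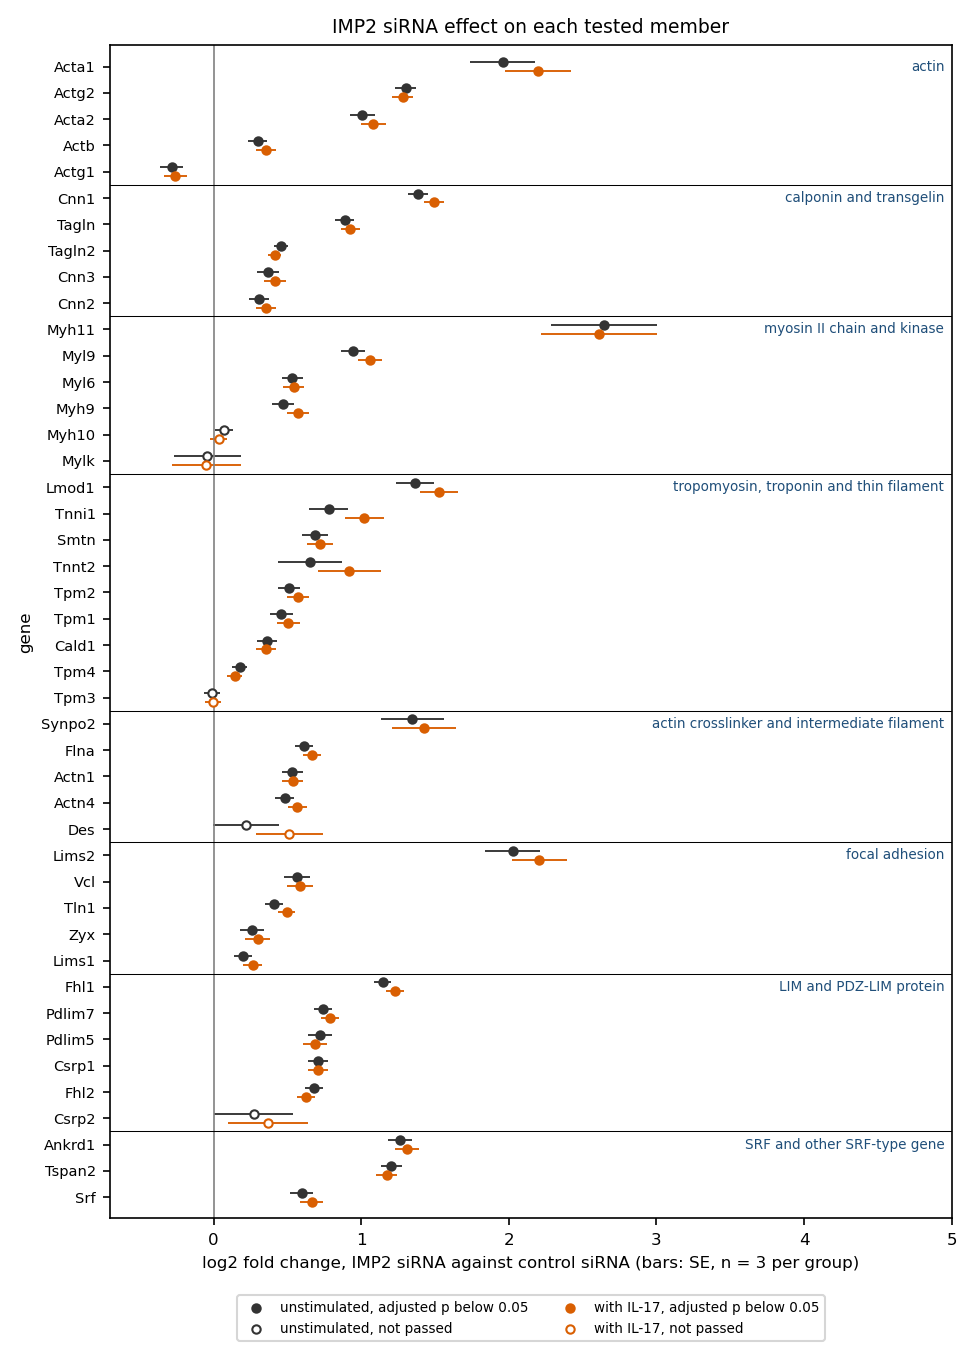
Points give the log2 difference of siIMP2 against siControl for each tested member, black without stimulus and orange with IL-17, with SE bars and open points where the adjusted p was not below 0.05. Values run from -0.28 (Actg1) to 2.64 (Myh11) without stimulus, and the orange points lie close to the black ones.

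With IL-17 present the same siRNA comparison was repeated in separate libraries. Again 38 members rose, where 16.7% of all genes did (2289 genes), and Actg1 fell, where 16.7% did (2292 genes). The 38 and the 5 that did not pass were the same genes as without stimulus, the median was 0.61, and 13 members rose at least 2-fold. Without the title-set term 3 rose (Myh11, Synpo2 and Lims2), where 0.971% of all genes did. In 40 members every siIMP2_IL17 library lay above every siControl_IL17 library of its set, against 27.5% of all genes, and over both sets together the groups lay apart in this way for 15 members and 9.24% of all genes. Acta2 measured 6167, 5260.2 and 2643 CPM in siControl_IL17 and 11705, 12074 and 5813 CPM in siIMP2_IL17, a rise of 1.08 ± 0.09 (edgeR adjusted p = 2.37e-06). Cnn1 went from 642, 599 and 161 to 1697, 1752 and 465 CPM, by 1.49 ± 0.07 (edgeR adjusted p = 9.01e-08). The RB160 siIMP2_IL17 library lay between the NA siControl_IL17 libraries for Acta2 and below them for Cnn1, so the pooled groups overlapped. Whether the siRNA difference itself changed with IL-17 was tested as the difference of the IL-17 responses.

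The values by library with IL-17 follow for the other roles. Actg2 went from 435, 374 and 237 CPM in siControl_IL17 to 999, 1009 and 549.9 CPM in siIMP2_IL17, and Lims2 from 20.7, 15.9 and 9.26 to 88.4, 105 and 31.0 CPM. Lmod1 went from 96.3, 88.8 and 43.4 to 261, 310.2 and 107 CPM, and Flna from 3189, 2878 and 2155 to 4568, 4955 and 3503 CPM. These 4 genes did not overlap between the groups. Tagln went from 2935, 2542 and 1244 to 5108, 5028 and 2499 CPM, Fhl1 from 757, 741 and 314 to 1665, 1804 and 752 CPM, and Myl9 from 466, 413 and 213 to 937, 951 and 417 CPM. Here the RB160 siIMP2_IL17 library lay among or below the NA siControl_IL17 libraries. Ankrd1 went from 308, 300.3 and 120.2 to 641, 757 and 349 CPM, Tspan2 from 37.1, 38.3 and 16.04 to 77.9, 87.9 and 38.1 CPM, and Pdlim7 from 332, 299.8 and 146 to 525, 551 and 259 CPM. Ankrd1, the mechanically induced gene, kept the groups apart, and the other 2 overlapped through RB160. Tln1 went from 577, 529 and 417 to 753, 812 and 583 CPM, Actn4 from 1419, 1252 and 757 to 1876, 1930.3 and 1213 CPM, Smtn from 157, 153 and 94.6 to 250.2, 280.4 and 143 CPM and Myl6 from 1136, 1102 and 912 to 1750.3, 1684 and 1191 CPM. Tln1 and Myl6 did not overlap.

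Some calls were near the threshold. Without stimulus the adjusted p of Tpm4 was 0.0769 without siIMP2 replicate 1 and 0.0641 without siControl replicate 2. That of Lims1 was 0.091, 0.108 and 0.12 without siIMP2 replicate 1, siIMP2 replicate 2 and siControl replicate 2, the last with a difference of 0.13. For Zyx it lay between 0.0531 and 0.147, and for Tnnt2 between 0.0821 and 0.145, without siControl replicate 1 or 3 or siIMP2 replicate 2 or 3. With IL-17, Actg1 was at 0.0573 to 0.0813 without siControl_IL17 or siIMP2_IL17 replicate 1 or 2, and Zyx at 0.0578 and 0.0863 without siControl_IL17 replicate 2 or 3. Tpm4 was at 0.0505 to 0.126 when 1 of the 6 IL-17 libraries, siIMP2 replicate 2 or 3, or siControl replicate 3 was left out. Des and Csrp2 passed without siIMP2_IL17 replicate 3, with 0.048 and 0.0415. The other rises passed in every fit that left out 1 library. Tested against a fold change of 1.2 rather than of 1, 30 members rose without stimulus, where 5.61% of all genes did, and 31 with IL-17, where 5.9% did.

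The files also count reads that fall in a gene but outside its exons, 4.49% to 6.42% of the gene reads of a library, most often taken to come from unspliced RNA. Of the members, 42 had enough of these reads to be tested (Myh11, Des and Actc1 had not), among 12463 genes. Without stimulus 34 of the 42 were higher in siIMP2, where 5.91% of all genes were, and 0 were lower. The median difference was 0.71, against -0.01 for all genes. With IL-17, 32 were higher, where 6.03% of all genes were, and 0 were lower, with a median of 0.69. The siRNA target itself differed here by -0.36 ± 0.17 (edgeR adjusted p = 0.197) without stimulus, against -2.77 in exons.

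Of the 37 members that rose in exons and were tested outside them, 33 also rose outside them. The matching share among all genes that rose in exons was not counted, so this overlap is not shown to be particular to the members. Cnn1 outside exons rose by 1.80 ± 0.11 (edgeR adjusted p = 1.35e-10), Actg2 by 1.61 ± 0.11 (2.07e-10), Lims2 by 1.98 ± 0.15 (2.1e-09) and Acta2 by 1.19 ± 0.11 (3.81e-08). Myl9, the regulatory light chain, rose by 1.65 ± 0.15 (edgeR adjusted p = 1.96e-08) and Fhl1 by 1.502 ± 0.10 (3.34e-10). The 4 that rose in exons alone were Actb at 0.17 ± 0.13, Srf at 0.38 ± 0.13, Lims1 at 0.23 ± 0.11 and Tnni1 at -0.11 ± 0.37 (edgeR adjusted p = 0.482, 0.0554, 0.204 and 0.903), the last on 204 such reads in all. With the scaling factors of the exon counts Srf passed outside exons too, at 0.52 (edgeR adjusted p = 0.0194). Myh10, the non-muscle heavy chain that did not pass in exons, rose outside them by 0.64 ± 0.12 (edgeR adjusted p = 0.000693). Actg1, which fell in exons, was at -0.01 ± 0.12 outside them (edgeR adjusted p = 0.984). The difference between the 2 kinds of read was not tested for any gene. Strand use in counting is not given in the sources used here, so reads of overlapping or antisense genes may be among them.

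**Figure D4:**
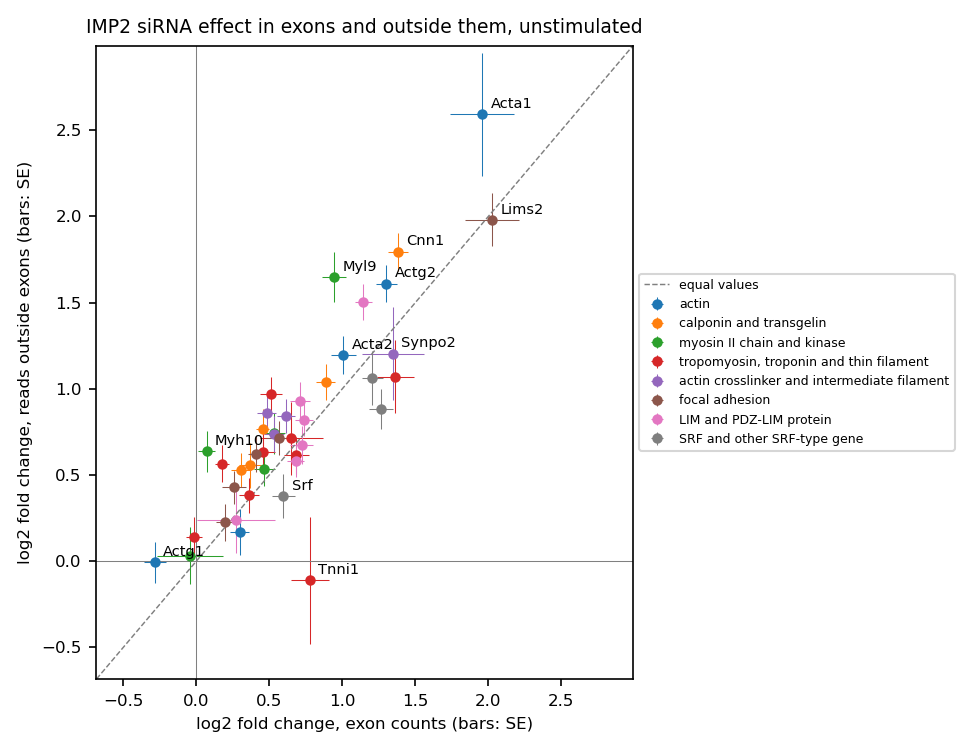
Each point is a member tested in both kinds of read, with the unstimulated siRNA difference in exons on the x axis and outside exons on the y axis (log2, SE bars, dashed line at equal values). Most points lie above 0 on both axes, with Acta1 and Lims2 at the upper right, Actg1 left of 0 on the x axis, and Tnni1 apart with a wide bar.

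The title sets differed in contractile gene level. In RB160, 38 members were lower than in NA, where 34.6% of all genes were, and Mylk and Lims1 were higher, where 34.9% were. The median difference was -0.68. The RB160 against NA difference of Cnn1 was -1.79 ± 0.06 and that of Tnni1 -2.55 ± 0.11 (edgeR adjusted p = 6.32e-11 and 1.08e-09). Mylk was higher by 1.22 ± 0.16 (edgeR adjusted p = 1.89e-05), and Csrp2, Tpm4, Myh10 and Myh11 did not pass.

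A test of whether the siRNA acted alike in the sets picked out 6 members, where 5.2% of all genes were called. In NA libraries Myh11, Synpo2 and Lims2 differed by 3.27, 1.72 and 2.29 without stimulus, and in RB160 by 1.64, 0.69 and 1.48. Tnnt2, the cardiac troponin T gene, went the other way, with 0.39 in NA and 1.25 in RB160. Csrp2 and Mylk had opposite signs. Csrp2 measured 29.0, 32.9 and 69.7 CPM in siControl and 52.5, 53.3 and 45.1 CPM in siIMP2, so that siIMP2 was higher in NA (0.77) and lower in RB160 (-0.63). Mylk measured 5.27, 5.02 and 19.4 CPM in siControl and 6.43, 7.03 and 12.4 CPM in siIMP2, with 0.38 in NA and -0.65 in RB160. In a fit of the NA libraries alone both rose without stimulus, Csrp2 by 0.77 and Mylk by 0.38 (edgeR adjusted p = 2.6e-05 and 0.045). Tpm3 also had unlike signs, -0.06 in NA and 0.08 in RB160, both near 0. RB160 has 1 library per group, so its own spread is not known.

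**Figure D5:**
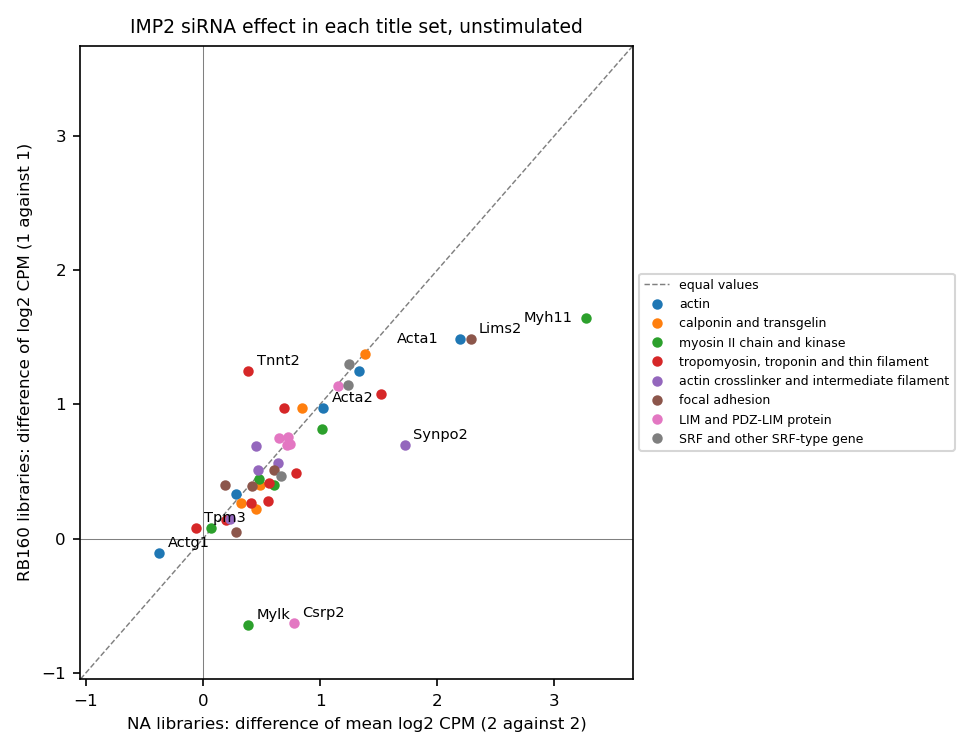
Each point is a tested member, with the unstimulated siIMP2 minus siControl difference in mean log2 CPM of the NA libraries on the x axis and of the RB160 libraries on the y axis. Most points lie near the dashed line of equal values, while Csrp2 and Mylk fall below 0 in RB160 and Myh11, Lims2, Acta1 and Synpo2 lie below the line.

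The response to IL-17 asks whether the cytokine itself moves these genes. With the control siRNA 0 of the 44 members passed by edgeR, where 0.423% of all genes did (58 genes). At an unadjusted p below 0.05 there were 19 members and 1503 genes, and DESeq2 called 3 members, Csrp1, Myl9 and Cnn1, all lower. The members leaned one way: 42 of 44 differences were negative, against 52.1% of all genes, with a median of -0.19 against -0.01. With the IMP2 siRNA 0 members passed, where 0.511% of all genes did (70 genes), 14 had an unadjusted p below 0.05 (1038 genes), DESeq2 called Csrp1 and Myh10 lower, 41 differences were negative against 52.8% of all genes, and the median was -0.14. The siControl libraries serve both this comparison and the unstimulated siRNA comparison, and likewise the siIMP2 libraries, so the values are set side by side only.

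Csrp1, a LIM protein of smooth muscle and fibroblasts (ENSMUSG00000026421, mm10 chr1:135720061-135752232, plus strand), had the smallest p with either siRNA. It measured 1041, 1037 and 577 CPM in siControl and 939, 861 and 427 CPM in siControl_IL17, a difference of -0.28 ± 0.07 (edgeR adjusted p = 0.124, NA -0.21, RB160 -0.44). With the IMP2 siRNA it measured 1672, 1738 and 935 CPM without and 1410.1, 1548 and 689 CPM with IL-17, a difference of -0.28 ± 0.07 (edgeR adjusted p = 0.123). Within each set the libraries with IL-17 were the lower ones, and over both sets the groups overlapped. Next with the control siRNA stood Myl9 at -0.31 ± 0.08 and Cnn1 at -0.26 ± 0.07 (edgeR adjusted p = 0.153 and 0.153). Next with the IMP2 siRNA stood Myh10 at -0.22 ± 0.06 and Vcl at -0.24 ± 0.09 (edgeR adjusted p = 0.192 and 0.458).

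Myh10 measured 489.9, 484 and 536 CPM in siControl, 513, 506 and 567 CPM in siIMP2, 455, 442 and 431 CPM in siControl_IL17 and 461, 464 and 435 CPM in siIMP2_IL17. With either siRNA every library with IL-17 lay below every library without it. Vcl measured 1619, 1292 and 1222 CPM in siControl, 2254, 2141 and 1737 CPM in siIMP2, 1377, 1151 and 938 CPM in siControl_IL17 and 1869, 1945 and 1396 CPM in siIMP2_IL17, and for Vcl the groups with and without IL-17 overlapped. By title set, 41 of the 44 differences were negative in NA and 41 in RB160 with the control siRNA, and 40 and 39 with the IMP2 siRNA. The shares of all genes were not counted by title set, so these counts have no background, and RB160 has 1 library per group. For Cnn1 with the control siRNA the values were -0.17 in NA and -0.45 in RB160, and for Acta2 -0.16 and -0.51. The 2 RB160 libraries with IL-17 also had the highest shares of reads outside exons, 6.42% and 6.28% against 4.49% to 5.34% in the other 10. Its part in the IL-17 differences was not tested.

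The difference of the IL-17 responses between the siRNAs was called for 0 of the 44 members and for 0 of the 13702 genes (0%) by edgeR, and for 0 by DESeq2 and by limma-voom. At an unadjusted p below 0.05 there were 0 members and 152 genes. The members' differences of response ran from -0.06 to 0.29, with a median of 0.05. That is the same test as whether the siRNA acts differently with and without IL-17, and a p that misses the threshold does not show that it acts alike.

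The wider pathway was read from lists of other genes, chosen with earlier results of these data known. Of 9 tested SRF and YAP cofactors 6 rose in unstimulated siIMP2 cells and 1 fell. Yap1, the Hippo pathway coactivator, rose by 0.47 ± 0.05, Vgll3 by 0.71 ± 0.09 and the YAP partner Tead3 by 0.49 ± 0.06 (edgeR adjusted p = 2.76e-05, 6.25e-05 and 9.93e-05). Tead2, named after its value was seen, fell by 0.39 ± 0.08 (edgeR adjusted p = 0.00246).

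Of 24 genes of actin turnover and branching 14 rose and 2 fell. Tmsb4x, encoding the monomer-binding thymosin β4, rose by 0.62 ± 0.05, Cap1 by 0.51 ± 0.05 and the Arp2/3 subunit Arpc5 by 0.45 ± 0.06 (edgeR adjusted p = 4.13e-06, 1.99e-05 and 8.39e-05). Arpc1a and Arpc1b, Arp2/3 subunits named after their values were seen, fell by 0.18 ± 0.06 and 0.22 ± 0.05 (edgeR adjusted p = 0.0398 and 0.00687). With IL-17 these 2 did not pass (edgeR adjusted p = 0.0864 and 0.181). Of the same complex, and also named afterwards, Actr3, Arpc4 and Arpc2 rose without stimulus by 0.29 ± 0.05, 0.16 ± 0.05 and 0.14 ± 0.05 (edgeR adjusted p = 0.00126, 0.0205 and 0.037). Arpc3 and Actr2 did not pass. Among 21 further focal adhesion and stress fibre genes 16 rose and 0 fell: the tensin Tns1 by 1.25 ± 0.10, the kindlin Fermt2 by 0.86 ± 0.08 and Vasp by 0.69 ± 0.05 (edgeR adjusted p = 3e-06, 5.49e-06 and 1.35e-06). The shares of all genes that rose and fell in this comparison, 16.1% and 16.7%, are the background for each of these counts.

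Other SRF or YAP targets went both ways, with 7 of 10 up and 3 down, where 16.1% of all genes rose and 16.7% fell. Ctgf and Cyr61, the matricellular genes most used as readouts of YAP, rose by 1.66 ± 0.18 and 0.85 ± 0.07, and the SRF target Dnajb5 rose by 1.25 ± 0.07 (edgeR adjusted p = 2.31e-05, 4.45e-06 and 3.27e-07). The 3 that fell, named after their values were seen, are immediate early genes that SRF controls with ternary complex factors: Fos by 1.31 ± 0.17, Egr1 by 0.74 ± 0.12 and Junb by 0.34 ± 0.06 (edgeR adjusted p = 8.92e-05, 0.000543 and 0.000703). With IL-17 present the same 3 fell, by 1.22 ± 0.17, 0.80 ± 0.12 and 0.29 ± 0.06 (edgeR adjusted p = 0.000159, 0.000286 and 0.00171). Immediate early genes did not all fall. Fosb and Egr2 of the same list, also named after their values were seen, rose without stimulus by 0.78 ± 0.17 and 0.43 ± 0.13 (edgeR adjusted p = 0.00333 and 0.0245). Given IL-17, they rose by 0.54 ± 0.16 and 0.49 ± 0.13 (edgeR adjusted p = 0.0219 and 0.0127).

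Markers of other cell types moved beside the members. In bulk RNA, more cells of a type and more of its RNA per cell cannot be told apart. The 7 smooth muscle markers, 6 of them members, summed to 7412 to 10668 TPM in siControl and 14291 to 21336 TPM in siIMP2. Most of each sum was Acta2, at 6958 to 9710 TPM in siControl and 13280 to 18896 TPM in siIMP2. Myocd, the smooth muscle coactivator, had 50 counts in all 12 libraries and was not tested. Of skeletal muscle markers Myod1 had 0 counts in every library, and Myog, Myh3 and Ckm had 16, 5 and 3 in all. Of cardiac markers Actc1 and Myh6 had 1 and 2 counts in all, and Nppa, which encodes atrial natriuretic peptide, rose from 0.240 ± 0.127 to 1.51 ± 0.775 CPM (SD, n = 3), by 2.69 ± 0.40 (edgeR adjusted p = 0.000257). The endothelial markers summed to at most 0.639 TPM in each library. Of macrophage markers Adgre1 and Ptprc had 0 and 16 counts in all, and Cd68 and Csf1r had 1442 and 622. Together the macrophage markers summed to 7.40 to 10.5 TPM in siControl and 5.89 to 8.70 TPM in siIMP2. Cd68 and Csf1r did not pass, at -0.30 ± 0.20 and 0.34 ± 0.27 (edgeR adjusted p = 0.268 and 0.371).

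Fibroblast markers summed to 8324 to 12086 TPM in siControl and 8120 to 12557 TPM in siIMP2. By test 5 of 8 genes were lower in siIMP2, where 16.7% of all genes were, and 1 was higher, where 16.1% were. Pdgfra differed by -2.23 ± 0.11, Dcn by -2.65 ± 0.24 and Col3a1 by -0.72 ± 0.10 (edgeR adjusted p = 1.54e-07, 5.49e-06 and 0.000119). Pdgfra and Dcn varied widely between siControl libraries, at 51.2 ± 56.1 and 14.48 ± 14.96 CPM (SD, n = 3). Col1a1, named after its value was seen, was the gene that rose, by 0.32 ± 0.07 (edgeR adjusted p = 0.00411). Vim and Thy1 did not pass, at -0.02 ± 0.07 and -0.57 ± 0.31 (edgeR adjusted p = 0.829 and 0.1795). Of the 4 tested pericyte markers Cspg4 rose by 1.22 ± 0.08, and Pdgfrb and Rgs5 differed by -0.50 ± 0.06 and -1.22 ± 0.24 (edgeR adjusted p = 4.92e-07, 3.64e-05 and 0.00214). Notch3, named after its value was seen, was lower too, at -0.39 ± 0.09 (edgeR adjusted p = 0.0058). The shares of all genes, 16.1% higher and 16.7% lower, are the background here as well. The part of these markers in the rise of the contractile genes was not tested.

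The authors' deposited table of comparisons names its control Mock, where the sample labels say siControl. It lists 6 members with an adjusted p below 0.05 in each siRNA comparison, all higher: Acta1, Actg2, Myh11, Lmod1, Synpo2 and Lims2. They stand among 164 and 170 such genes of 20274 (0.809% and 0.839%). In the authors' deposited table the unstimulated log2 values of these 6 run from 1.32 for Actg2 to 2.68 for Myh11, and 0 members pass in its IL-17 comparisons.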

How the data were processed

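RNA-seq was measured in 12 libraries, 3 per group. The authors deposited whole-number counts of reads per gene, TPM values, and per-library totals of gene reads and uniquely mapped reads, per the file headers. The authors' deposited comparison table holds log2 fold changes and p-values adjusted by FDR. Per the submitters' processing notes, reads were placed on mm10. Which aligner and counter were used, and whether strand was, is not given in the sources used here. Every per-sample count column was mapped to a sample, leaving 0 unused.

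Counts were kept by edgeR's filterByExpr on the groups (minimum count 10, minimum total 15) and scaled by TMM. They were tested with edgeR 4.0.16's quasi-likelihood test in R 4.3.3, with terms for group and title set, over all 12 libraries. P-values were adjusted by Benjamini-Hochberg over all genes tested, with a threshold of 0.05. The SE is the log2 difference divided by the root of its F statistic. Title-set values use log2 CPM with a prior count of 2. Reads outside exons are total gene reads minus exon counts. limma 3.58.1 and DESeq2 1.42.0 served as alternatives, with other scalings, filters, models and left-out libraries. A fit on uniquely mapped reads was chosen after seeing the data. The code was tested on simulated data.

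The members and lists were chosen with earlier results of these data known. All members are named. Values in every library are given for the 2 members of smallest p of each role in the unstimulated siRNA comparison, members called against their role's direction, and the 3 of smallest p in each IL-17 comparison. Up to 3 genes of smallest p are named from each other list. One other list is not reported here.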

Additional observations from a re-analysis of the deposited data

Results flagged for a closer look

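For 6 members the siRNA difference was not the same in the libraries with RB160 titles and those with NA titles, by edgeR's test of that difference over all 12 libraries, in which 712 of 13702 genes (5.2%) were called. Given as the log2 value in RB160 minus that in NA, Csrp2, a smooth muscle LIM protein, differed by -1.37 (adjusted p = 3.74e-05) and Mylk, the myosin light chain kinase, by -1.01 (adjusted p = 0.00562). Both were higher with IMP2 siRNA in NA and lower in RB160. Tnnt2, the cardiac troponin T gene, differed by 1.02 (adjusted p = 0.00288), with the larger value in RB160. Synpo2, Lims2 and Myh11 were higher with IMP2 siRNA in both sets, by less in RB160, with differences of -0.89, -0.74 and -1.50 (adjusted p = 0.0245, 0.0352 and 0.044). By limma-voom Myh11 did not pass (adjusted p = 0.0718). RB160 holds 1 library per group, and what separates the sets cannot be told apart from that library.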

How the results depend on the processing

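No paired analysis was possible because the labels number no replicates (the numbers used here follow accession order), beyond the title set, which is a term of the model. In the unstimulated siRNA comparison (38 members higher, 1 lower, 4505 genes), a model without the title-set term gave 3, 0 and 321, and a test against a 1.2-fold change gave 0 lower and 1633 genes. With IL-17 (38, 1 and 4581) these were 3, 0 and 327, and 0 and 1664. Mylk without stimulus reversed to 0.38 in the NA libraries alone (adjusted p = 0.045). Leaving out 1 library gave 35 to 38 higher, 0 to 1 lower and 3222 to 4690 genes without stimulus, and 36 to 39, 0 to 1 and 3357 to 4804 with IL-17. The fewest calls without stimulus came without siIMP2 replicate 2.

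The IL-17 comparisons were the least settled. With control siRNA (0 members, 58 genes), DESeq2 gave 3 members lower and 193 genes, no filter beyond 1 count 5 and 221, and only the groups compared 1 and 100. There was 1 gene without the title-set term and 11 against a 1.2-fold change. With IMP2 siRNA (0 members, 70 genes), the same settings gave 2 and 171, 1 and 179, 3 and 349, then 2 genes and 14 genes, and the NA libraries alone gave 46 genes. Leaving out 1 library gave 9 (without siControl_IL17 replicate 3) to 98 genes (without siIMP2_IL17 replicate 3) with control siRNA, 13 (without siIMP2 replicate 3) to 117 genes (without siControl replicate 3) with IMP2 siRNA, and 0 to 0 members. The response difference stayed at 0 to 0. The siRNA effect by title set, without the filter, gave 2 members higher (1 with it), 7 lower (5) and 1200 genes (712), adding Acta1 (-0.68), Lmod1 (-0.39) and Actg1 (0.27). The causes were not tested.

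Depth limits Myh11, Des, Tnni1 and Actc1, which had few reads. Of the reads of Actg1, Tpm4, Srf, Vcl, Tpm3, Acta1 and Myl6, 26.6% to 79.4% were uniquely mapped, and on such reads alone 1 siRNA call of a member was lost, Tpm4 with IL-17 (adjusted p = 0.0914).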
